A study of Mus musculus with 24 samples.

Results

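The genes described here build, modify and carry heparan sulfate and chondroitin sulfate, the sulfated sugar chains of cell surfaces and matrix. The set has 51 members among the 15736 genes of the count table. Members were taken from the known steps of the pathway among genes with a row in that table, so genes absent from it could not be members. Beyond this the rule uses no measured value, though it was written with earlier results of these data known. By step, 6 members build the linker that joins a chain to its core protein, and 6 extend or epimerise the heparan chain. Another 9 sulfate the heparan chain, 2 are endosulfatases that trim it (Sulf1 and Sulf2), and 11 are core proteins that carry it. On the chondroitin side, 7 members build the chain and 7 sulfate it. The remaining 3 (Chst1, Chst2 and Chst10) are sulfotransferases of other glycans.

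RNA was measured in mouse otocyst epithelium, the wall of the vesicle that becomes the inner ear. Control pools (con) came from Rosa26rtTA/+ embryos and experimental pools (R2b) from Rosa26rtTA/+;Tg(tetO-s(dn)Fgfr2b)/+ embryos. The transgene makes the receptor FGFR2b in a dominant-negative, soluble version, a secreted trap for its ligands. Both genotypes carry rtTA, a doxycycline-dependent activator expressed from the widely active Rosa26 locus, and both received doxycycline, given to the mother as a 1.5 mg/kg injection and then in chow at 200 mg/kg. The short exposure ran 12 hours from embryonic stage E9.75, the long exposure 24 hours from E9.25 and the late exposure 24 hours from E10.25. The short and long exposures thus ended at E10.25 and the late one at E11.25. Each litter gave 1 con pool and 1 R2b pool, and the trap is secreted, so any cell of the embryo that makes it could supply the epithelium. Counts were analysed for 3 litters of the short exposure and 4 of each other one, 22 libraries with 18676615 to 28241583 counts each.

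Each chain starts with a xylose on a serine of a core protein, followed by a short linker of galactose and glucuronic acid, and the first hexosamine added then commits it to the heparan or the chondroitin type. FGF receptors bind most of their ligands as a complex with heparan sulfate, whose N-, 2-O- and 6-O-sulfate groups set how strongly a ligand is held. The syndecans and glypicans carry these chains at the cell surface, and perlecan and agrin carry them in basement membranes, including the one under the otic epithelium.

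The 5′ flanks of members that moved together are shown first. The rule took up to 3 members called higher in both the short and the long exposure, in order of the larger of their 2 adjusted p-values. Among the 51 members, 41 had a window in the RefSeq promoter table (GRCm38.p6), each running from 250 bases before a transcript start to 50 after it. Sdc2 and Gpc1, which stood ahead of Hs6st1 and Agrn, were among the other 10. Windows were searched on both strands for CCGGAA and AGGAAG, core sites of ETS factors that act downstream of FGF signals, and for TGANTCA, the AP-1 site. Both ETS motifs hold GGAA and cannot share it, since the base before it differs. Capitals mark a match. The windows are Chst2 (chr9:95407221-95407520, minus strand), Hs6st1 (chr1:36068150-36068449, plus strand) and Agrn, which has a window at its upstream start (chr4:156197439-156197738, minus strand) and at an internal start (chr4:156186210-156186509, minus strand).
Chst2: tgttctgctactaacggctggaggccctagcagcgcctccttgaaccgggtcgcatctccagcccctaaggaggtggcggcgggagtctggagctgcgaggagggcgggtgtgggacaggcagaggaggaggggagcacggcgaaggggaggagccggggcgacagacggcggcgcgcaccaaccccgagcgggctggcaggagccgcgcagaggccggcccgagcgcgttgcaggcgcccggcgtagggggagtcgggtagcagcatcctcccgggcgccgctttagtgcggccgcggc
Hs6st1: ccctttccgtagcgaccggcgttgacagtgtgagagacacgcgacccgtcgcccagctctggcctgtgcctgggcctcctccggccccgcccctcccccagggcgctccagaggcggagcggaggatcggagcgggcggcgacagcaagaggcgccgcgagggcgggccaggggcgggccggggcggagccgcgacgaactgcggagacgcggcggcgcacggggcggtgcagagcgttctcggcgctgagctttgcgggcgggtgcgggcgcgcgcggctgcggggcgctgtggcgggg
Agrn upstream: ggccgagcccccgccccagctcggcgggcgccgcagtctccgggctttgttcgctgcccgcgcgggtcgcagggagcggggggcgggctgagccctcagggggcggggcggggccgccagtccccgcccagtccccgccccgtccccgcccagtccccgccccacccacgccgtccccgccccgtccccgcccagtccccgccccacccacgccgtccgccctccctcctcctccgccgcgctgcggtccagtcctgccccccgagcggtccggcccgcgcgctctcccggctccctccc
Agrn internal: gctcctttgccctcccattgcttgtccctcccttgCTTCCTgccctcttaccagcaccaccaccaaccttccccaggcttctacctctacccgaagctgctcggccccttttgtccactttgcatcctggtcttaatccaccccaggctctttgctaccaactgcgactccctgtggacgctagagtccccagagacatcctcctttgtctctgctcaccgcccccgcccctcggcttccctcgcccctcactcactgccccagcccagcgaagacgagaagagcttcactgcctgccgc
The only match in these 4 windows was 1 AGGAAG, read from the opposite strand of the internal Agrn window. Over all 32851 promoters, CCGGAA was found in 14.9%, AGGAAG in 35.4% and TGANTCA in 7.81%. In the 49 windows of members the motifs were found in 6, 21 and 1. A match or its absence says only which letters lie in these windows. The Chst2 window belongs to a RefSeq start and lies wholly upstream of the GENCODE span of the gene (95399292 to 95406722).

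Before the results, the labels were checked on the transgene, whose reads fall in Fgfr2 and Ighg1. Con pools of the short exposure held 19 to 36 Ighg1 counts and R2b pools 19414 to 76096; in the long exposure these ranges were 1 to 5 and 26082 to 42515. In the late exposure the libraries labelled con had 15754, 28, 5106 and 16 counts in litters 1 to 4, and those labelled R2b had 1504, 25248, 23658 and 19155. Litter 1 thus went against its labels, and the library labelled con of litter 3 held transgene reads as well. All libraries kept their labels. For that exposure the member calls are also given without these litters. Its con levels, step ranges and list results rest on all its libraries under their labels. All 12 otic epithelium markers were detected in every library. The summed level of these markers was 3647 to 3970 CPM (counts scaled to library size with TMM factors) in con and 4086 to 4927 CPM in R2b in the short exposure, groups that did not overlap. In the long exposure it was 2213 to 3576 CPM in con and 3147 to 5033 CPM in R2b, higher in R2b in 4 of 4 litters. Single markers did not all follow the sum. In the short exposure 8 of 12 were higher, with 4 called higher and 1 lower, beside 20.0% of all genes called. In the long exposure 9 of 12 were higher, with 2 called higher and 3 lower, beside 15.6%. Mesenchyme marker sums were 122 to 403 CPM in con and 233 to 416 CPM in R2b in the short exposure. In the long exposure they were 89.7 to 1354 and 101 to 1256 CPM, and both pools of litter 4 were the highest. Blood marker sums reached 5132 CPM in the R2b pool of litter 3 in the late exposure against at most 723 CPM in the other pools of that exposure. Of the hindbrain neural tube list 4 of 13 markers were in the table, and their sum was small but higher in R2b in all litters of the short (10.4 to 21.7 CPM in con, 19.9 to 25.5 in R2b) and long exposures (8.28 to 41.8 and 19.7 to 48.5). Endothelium markers had a median log2 fold change of -0.84 in the long exposure, with 0 of 11 higher and 0 called by edgeR. The part of these differences in the results below was not tested. In pooled tissue, fewer cells of a type and less RNA per cell cannot be told apart.

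In con pools the highest levels per length of transcript were those of core proteins. Gpc3 led the whole set, with 119 ± 6.35, 110.4 ± 7.43 and 129 ± 20.2 CPM per kb of exon in the short exposure, the long exposure and the late exposure (SD, n = 3, 4 and 4). Agrn followed at 109 ± 19.4 CPM per kb in the late exposure, a level within the spread of that of Gpc3 there. Both values include the litter 1 library labelled con, which held 15754 Ighg1 counts. In that library Agrn was at 1255 CPM, against 820 to 1000 CPM in the other con pools. Gpc3 was at 270 CPM there, against 358 to 396 CPM. The highest member of the heparan sulfation step was Ndst1, an N-deacetylase and N-sulfotransferase, at 30.7, 29.5 and 30.5 CPM per kb. Sulf1 and Sulf2 lay at 35.6 to 45.8 CPM per kb, above every chain and sulfation enzyme. The lowest members were Chsy3, at 0.0263 to 0.132 CPM per kb, and Ndst3, at 0.116 to 0.417, and Chsy3 was below the count filter in the short exposure. Chondroitin chains were represented by Chsy1, a chondroitin synthase, at 24.6 to 27.7 CPM per kb, while no chondroitin sulfotransferase passed 10 CPM per kb in a con mean. The levels span more than 3 decades on the plot of con levels.

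**Figure D1:**
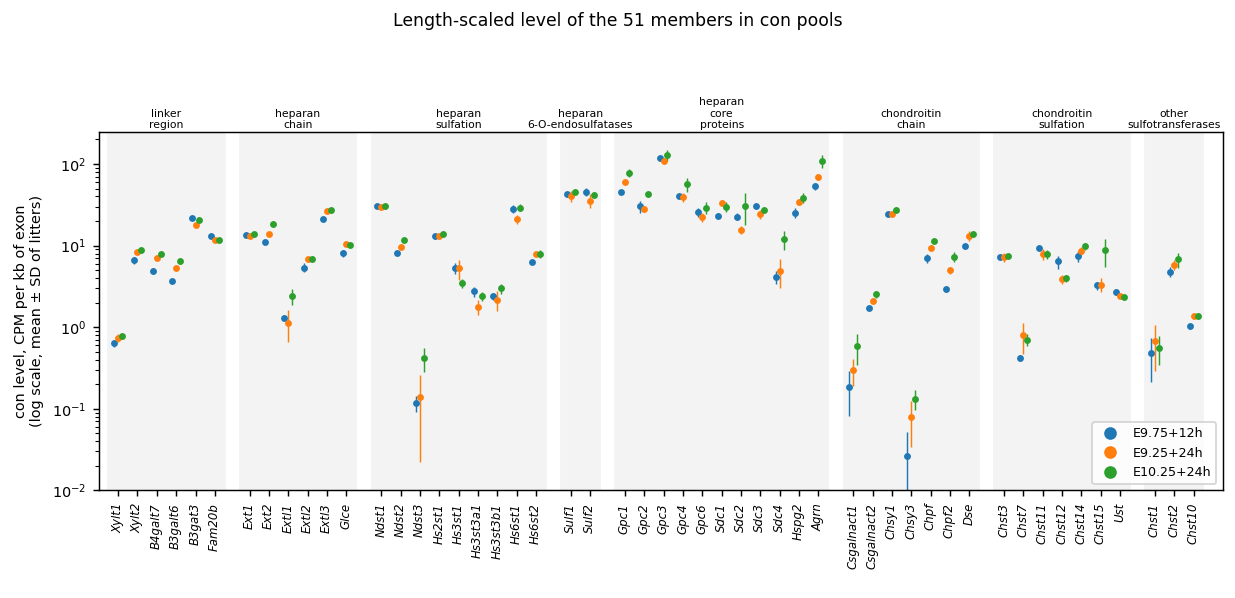
Level of each of the 51 members in con pools, grouped by step, as CPM per kb of exon on a log axis (points are means, bars SD of 3 or 4 litters, colours the 3 exposures, where 12h marks the short one, E9.25 the long one and E10.25 the late one). Gpc3 and Agrn are at the top and Chsy3, at 0.0263 to 0.132 CPM per kb, at the bottom; bars that reach the axis floor are cut there.

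The comparison of R2b with con asked which of these transcripts shifted when ligands of FGFR2b were trapped. A member is called here when its edgeR quasi-likelihood test gave a Benjamini-Hochberg adjusted p (FDR) under 0.05 over all genes tested. In the short exposure 12 of 50 members tested passed, with 10 up and 2 down in R2b, beside 20.0% of all genes tested called in either direction (1518 of 14882 genes were higher). The long exposure gave 10 of 51, all higher, beside 15.6% of all genes in either direction and 9.09% called higher. The share of members called in either direction was near the background in both exposures, and nothing is read from it. The median log2 fold change of the members was 0.18 and 0.16, against 0.011 and -0.010 for all genes tested. With the litter as a block the counts were 5 in the short exposure, beside 11.9% of all genes, and 22 in the long exposure, beside 40.6%. Single pools moved the counts. In the short exposure, dropping the R2b pool of litter 2 gave 21 members and 4583 genes, dropping litter 1's gave 5 and 1255, and dropping litter 3's, or the con pool of litter 1 or 2, gave 6 members and 1545 to 1860 genes. In the long exposure, dropping the R2b pool of litter 1 gave 5 members and 816 genes, and dropping litter 2's gave 4 and 934. The calls over all genes, 2973 and 2335 with every pool, thus moved in the same direction as those of the members.

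Both lists held Hs6st1, Gpc1, Gpc4, Sdc2, Hspg2, Agrn and Chst2, all higher in R2b. These 7 are 58.3% of the members called in the short exposure and 70.0% of those called in the long exposure. Over all genes the like shares were 43.6% and 55.5%, and 7 of 50 members tested in both stand beside 8.86% of all genes. The exposures have separate con pools, and the library numbers of each exposure carry their own prefix. Anything that goes with that prefix cannot be told apart from the exposure itself. Mitochondrial genes held 4.00 to 6.69% of counts in the short exposure and 1.53 to 1.70% in the long exposure. The difference between the 2 effects, tested as a contrast in edgeR, passed for 0 of 51 members and 0 genes. At an unadjusted p under 0.05 it did for 7 members and 1908 genes, and DESeq2 called 0 members and 99 genes. Without the R2b pool of litter 2 in the short exposure 5 members differed (Fam20b, Ext1, Ndst2, Hs2st1 and Chpf), beside 1147 of all genes. Sdc2 differed by 0.23 (SE 0.29) and Chst2 by 0.30 (SE 0.28) on the log2 scale.

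**Figure D2:**
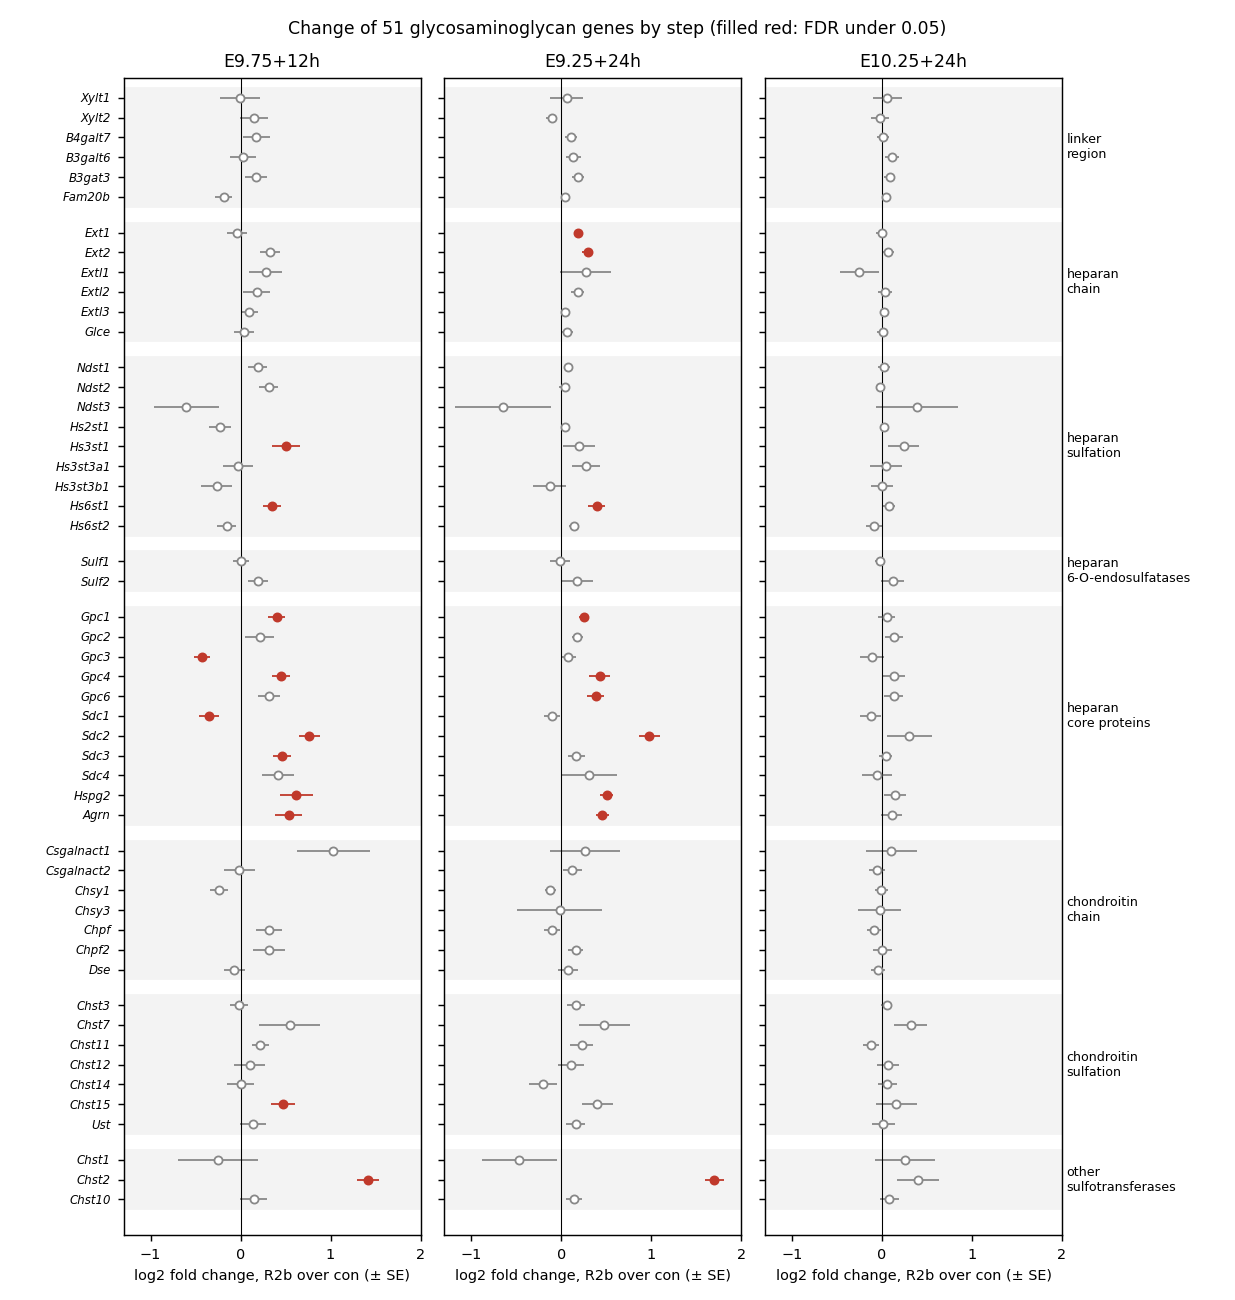
Log2 fold change of R2b over con (points, with SE as bars) for each member by step at the 3 exposures (left to right short, long and late), filled red where the FDR was under 0.05. The 12 calls in the short exposure and the 10 in the long exposure lie mostly among the core proteins, Chst2 is farthest to the right, and no point is filled in the late exposure.

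The linker enzymes gave no call at any exposure. Their log2 fold changes ran from -0.18 to 0.18 in the short exposure, from -0.11 to 0.18 in the long exposure and from -0.02 to 0.11 in the late exposure, with medians of 0.09, 0.08 and 0.05. The smallest FDR was 0.092, for B3gat3, the transferase that closes the linker with glucuronic acid and the highest linker gene per length. B3gat3 was at 43.9, 46.3, 50.6 and 43.2 CPM in con and 49.96, 54.2, 55.1 and 49.7 CPM in R2b in the long exposure, higher in 4 of 4 litters with overlapping groups. With the litter as a block its FDR was 0.0064 for a log2 fold change of 0.19. In the short exposure it was at 55.7, 60.6 and 54.4 CPM in con against 68.9, 53.9 and 70.0 CPM in R2b, so litter 2 went the other way. Fam20b, the xylose kinase, Xylt1 and Xylt2, the xylosyltransferases that start every chain, and the galactosyltransferases B4galt7 and B3galt6 make up the rest of the step.

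Heparan chain assembly rests on the copolymerase pair Ext1 and Ext2, and this pair was called higher in the long exposure by a small margin. Ext1 was at 106, 104, 103 and 106 CPM in con and 118, 122, 113 and 123 CPM in R2b. All R2b pools were above all con pools, with a rise of 0.18 on the log2 scale (SE 0.04, edgeR FDR 0.0196). Ext2 was at 107, 104, 94.5 and 100.2 CPM in con and 130.3, 133, 114 and 119.7 CPM in R2b, again without overlap, a log2 rise of 0.29 (SE 0.06, edgeR FDR 0.0181). Both calls were lost without the R2b pool of litter 1 or 2, with FDRs of up to 0.0622 and 0.0619, and the litter block gave 0.00192 and 0.000125. With all libraries in one fit Ext1 was at an FDR of 0.0968. In the short exposure neither passed: Ext1 was at 93.2 to 123 CPM in R2b around 105 to 112 in con, and Ext2 at 90.5 to 114 CPM above 75.7 to 86.2 in con (FDR 0.84 and 0.0546). Extl3, which adds the first heparan-type hexosamine and is the highest of the step per length, was at 121, 128 and 135 CPM in con and 138, 127 and 145 in R2b in the short exposure. In the pools of the long exposure Extl3 was at 159.7, 153, 157 and 168 CPM in con and 165, 164, 159 and 169 in R2b, a log2 fold change of 0.04 (SE 0.04). Extl1, Extl2 and Glce, the epimerase that makes iduronic acid, were not called, and with the block Extl2 passed in the long exposure (log2 0.19, FDR 0.0477).

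Among 9 heparan sulfation genes, Hs6st1 was the one called at both exposures, and it encodes the main 6-O-sulfotransferase by level in these pools. Hs6st1 was at 149, 146 and 177 CPM in con and 203, 194 and 207 CPM in R2b in the short exposure, a 1.28-fold rise (log2 0.35, SE 0.10, edgeR FDR 0.0302). Con pools of the long exposure had 125, 126, 119.8 and 96.9 CPM of Hs6st1 and R2b pools 149.9, 173, 155 and 137 CPM, a 1.31-fold rise (log2 0.39, SE 0.10, edgeR FDR 0.0278). In neither exposure did the groups overlap. The call was lost in the short exposure with the litter block (FDR 0.0577) and without the R2b pool of litter 1 or 3 or the con pool of litter 1 or 2 (FDR up to 0.123). The call in the long exposure was lost without the R2b pool of litter 1, 2 or 3 or the con pool of litter 3 (FDR up to 0.0821), and the block gave 7.36e-05. Its paralog Hs6st2 had log2 fold changes of -0.16 and 0.14, not called unless blocked (FDR 0.0302 in the long exposure). Hs6st1 made up 81.9% ± 1.29 of the summed Hs6st1 and Hs6st2 level per kb in con and 86.6% ± 1.52 in R2b in the short exposure (SD, n = 3), and 72.6% ± 2.09 and 76.0% ± 1.72 in the long exposure (SD, n = 4).

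Hs3st1, a 3-O-sulfotransferase, was called in the short exposure. It was at 10.1, 13.5 and 11.9 CPM in con and 17.0, 16.1 and 17.3 CPM in R2b, a log2 rise of 0.50 (SE 0.15, edgeR FDR 0.039). The call was lost without any 1 of 5 pools (all but the R2b pool of litter 2), with FDRs up to 0.144, the block gave 0.0945, and all libraries in one fit gave 0.0628. Its groups overlapped in the long exposure, at 9.19 to 16.3 CPM in con and 12.1 to 14.7 in R2b. Ndst1 was at 252, 260.1 and 249.8 CPM in con and 289, 253 and 329 CPM in R2b in the short exposure, and at 229.9 to 253 and 247 to 266 CPM in the long exposure, with no call. Hs2st1, the uronyl 2-O-sulfotransferase of heparan, had log2 fold changes of -0.23 (SE 0.12) and 0.04 (SE 0.04). The other members not called, among them Ndst2, Ndst3, Hs3st3a1 and Hs3st3b1, ran from -0.60 to 0.31 in the short exposure and from -0.65 to 0.27 in the long exposure. The most extreme of these is Ndst3, a gene of 0.531 to 3.04 CPM in the long exposure.

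The endosulfatases Sulf1 and Sulf2 remove 6-O-sulfate from finished chains outside the cell. Sulf1 was at 474, 479 and 481 CPM in con and 443, 507 and 491 in R2b in the short exposure, and at 383 to 526 and 412 to 479 CPM in the long exposure. Its log2 fold changes were 0.007 (SE 0.09) and -0.015 (SE 0.11). Sulf2 was at 265, 242 and 298 CPM in con and 286, 287 and 351 in R2b in the short exposure, or 0.20 on the log2 scale (SE 0.11, edgeR FDR 0.243). Sulf2 values in the long exposure were 202, 193, 173 and 267 CPM in con and 235, 229.9, 172 and 305 in R2b. The spread between litters of Sulf2 was wider than the step between genotypes, and with the litter as a block its log2 fold change of 0.16 passed (FDR 0.0123).

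Among the core proteins 8 of 11 were called in the short exposure, 6 higher and 2 lower, beside 20.0% of all genes, and 6 of 11 in the long exposure, all higher, beside 15.6%. With the block 4 were called in the short exposure, beside 11.9%, and 9 in the long exposure, beside 40.6%, where Gpc2 (log2 0.18, FDR 0.00345), Sdc3 (0.17, FDR 0.00304) and Sdc4 (0.34, FDR 0.0235) were added. Of the exon length of Gpc2, 55.6% overlaps Gm43720 on the same strand, a gene that has no row in the count table. The median log2 fold change of the 11 core proteins was 0.42 and 0.31. Sdc2, a transmembrane syndecan (ENSMUSG00000022261, plus strand of chromosome 15, 32920723 to 33034935, GRCm38), rose most of them. Sdc2 was at 81.1, 71.0 and 87.0 CPM in con and 120.2, 157 and 129.7 CPM in R2b in the short exposure. For the long exposure, the Sdc2 values were 63.8, 55.7, 50.9 and 50.5 CPM in con and 113, 130.2, 98.8 and 94.2 CPM in R2b. Every R2b pool was above every con pool at both exposures. The rises were 1.70-fold (log2 0.77, SE 0.12, edgeR FDR 0.00199) and 1.97-fold (log2 0.98, SE 0.11, edgeR FDR 0.00163), and the call held with each library or litter left out, with the block and with DESeq2.

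The 2 basement membrane proteoglycans rose at both exposures. Hspg2, which encodes perlecan (ENSMUSG00000028763, plus strand of chromosome 4, 137468769 to 137570630), was at 311, 363 and 417 CPM in con and 655, 382 and 638 CPM in R2b in the short exposure. The R2b pool of litter 2 lay within the con range there, and the log2 fold change was 0.62 (SE 0.18, edgeR FDR 0.037). Long-exposure con pools had Hspg2 at 532, 510.4, 448 and 457 CPM and in R2b pools at 764, 691, 651 and 655 CPM, a rise of 0.50 (SE 0.07, edgeR FDR 0.00428) without overlap. Agrn, which encodes agrin (ENSMUSG00000041936, minus strand of chromosome 4, 156165290 to 156197488), followed the same pattern. It was at 461, 549 and 479 CPM in con and 810.2, 535 and 809.8 CPM in R2b in the short exposure, lower in the R2b pool of litter 2 than in its con pool (log2 0.53, SE 0.15, edgeR FDR 0.0303). Agrn in the long exposure was at 688, 705, 613 and 597 CPM in con and 949, 946, 827 and 850.4 CPM in R2b (log2 0.46, SE 0.07, edgeR FDR 0.00592). In the short exposure both calls were lost without the R2b pool of litter 1 or 3 or 2 of the con pools (litters 1 and 2 for Hspg2, 1 and 3 for Agrn), with FDRs up to 0.153 and 0.129, and with the block (FDR 0.0592 and 0.0796). Both passed in the long exposure with any single library left out and with the block, and Agrn was at an FDR of 0.0542 without litter 1.

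Glypicans are held to the membrane by a lipid anchor. Gpc4 rose by 0.45 (SE 0.10, edgeR FDR 0.0102) in the short exposure, from 106 to 107 CPM in con to 129.8 to 161 in R2b. In the long exposure it rose by 0.43 (SE 0.11, edgeR FDR 0.0378), from 89.2 to 116 CPM to 119 to 159. Gpc1 rose by 0.40 (SE 0.10, edgeR FDR 0.0165) and 0.25 (SE 0.05, edgeR FDR 0.0183), and 18.9% of its exon length overlaps Ankmy1 on the opposite strand. Gpc6 was called in the long exposure (0.38, SE 0.10, edgeR FDR 0.0313) and was at 0.31 (SE 0.12, edgeR FDR 0.0919) in the short exposure. Each of these calls was lost without at least 1 single library (FDR up to 0.110 for Gpc4 in the long exposure), except that of Gpc4 in the short exposure, which was lost without litter 1 or litter 3 (FDR up to 0.141). The libraries were the R2b pools of litters 1 and 3 and con pools of litters 1 and 3 for Gpc1 in the short exposure and the R2b pool of litter 2 in the long exposure. For Gpc4 and Gpc6 in the long exposure they were the R2b pools of litters 1 and 2 and the con pools of litters 3 and 4. With the litter block in the short exposure the edgeR FDRs were 0.0546 for Gpc1, 0.035 for Gpc4 and 0.148 for Gpc6. In the long exposure the block gave 0.000486 for Gpc1, 8.8e-06 for Gpc4 and 4.58e-05 for Gpc6.

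Gpc3, whose transcript was the highest of the core proteins per length, and Sdc1, the syndecan of epithelia, were the members called lower without the block. Both were called in the short exposure. Gpc3 (ENSMUSG00000055653, minus strand of chromosome X, 52272426 to 52613950) was at 300.3, 334 and 323 CPM in con and 226, 247 and 239 CPM in R2b. Every R2b pool was below every con pool, and it fell by 0.43 on the log2 scale (SE 0.09, edgeR FDR 0.00805). The call held with any single library left out and with the block, and was lost without litter 1 or litter 3 (FDR up to 0.102). Gpc3 in the long exposure was at 320.1, 277, 284 and 307 CPM in con and 299.6, 271, 348 and 335 in R2b, with overlap. The difference between the 2 effects was 0.52 (SE 0.17), with an FDR of 0.265. Gpc4, its neighbour on the X chromosome, moved the other way in the short exposure. Sdc1 was at 82.4 to 92.1 CPM in con and 63.4 to 77.8 in R2b in the short exposure and fell by 0.35 (SE 0.11, edgeR FDR 0.0427). That call was lost without the R2b pool of litter 1 or any con pool (FDR up to 0.167) and with the block (FDR 0.0861). Sdc3, a syndecan best known from neural tissue, rose in the short exposure by 0.46 (SE 0.10, edgeR FDR 0.00998; 0.0511 without the con pool of litter 2).

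Scaled by length and summed over the 4 syndecans, the syndecan level in con was 80.0 ± 4.09 CPM per kb in the short exposure and 104 ± 6.53 in R2b (SD, n = 3). Sdc2 made up 28.2% ± 1.56 of that sum in con and 37.1% ± 4.15 in R2b, and Sdc1 28.7% ± 2.55 and 17.4% ± 1.61. In the long exposure the share of Sdc2 was 20.0% ± 1.73 and 32.3% ± 3.79, and that of Sdc1 42.8% ± 4.36 and 32.8% ± 4.29 (SD, n = 4). In both exposures the Sdc2 share of R2b was above every con share, and the Sdc1 share below. Among 5 glypicans Gpc3 made up 45.6% ± 1.41 of the summed level per kb in con and 32.8% ± 2.81 in R2b in the short exposure, and 42.4% ± 2.26 and 38.6% ± 3.83 in the long exposure. These shares are descriptions of the values tested above.

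**Figure D3:**
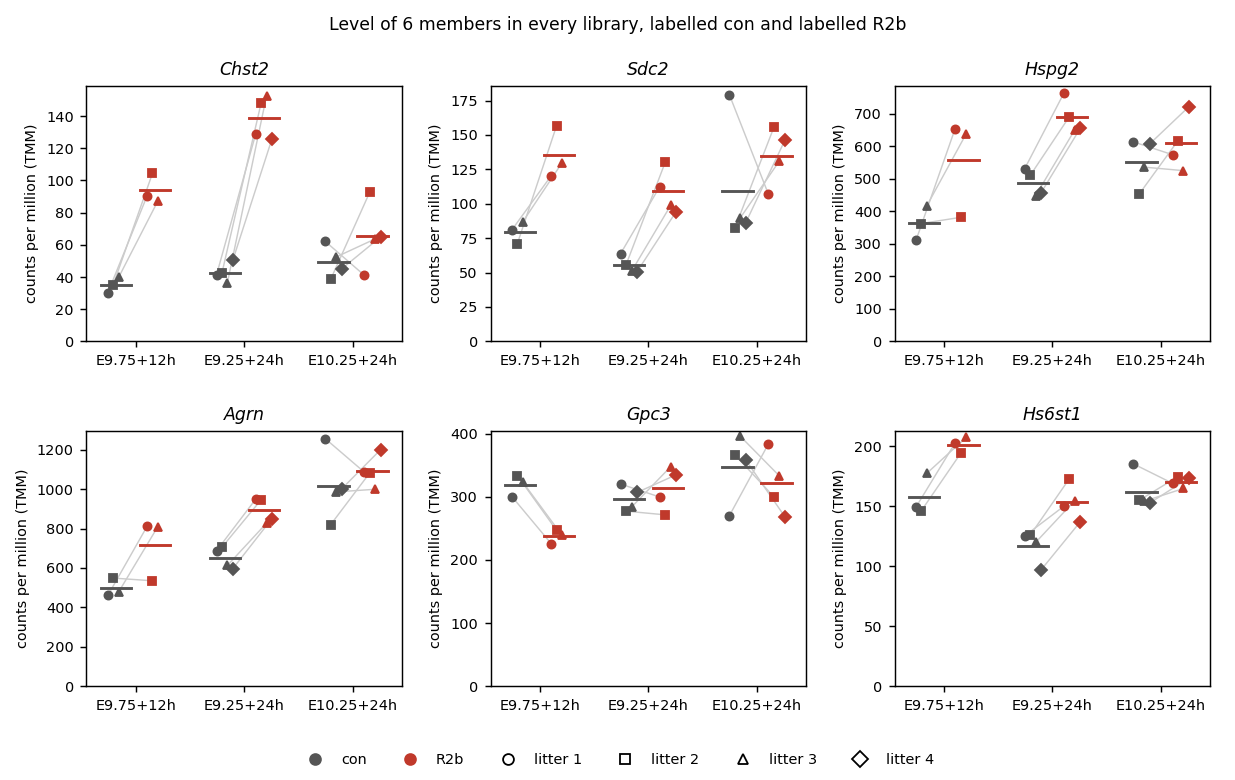
TMM-scaled CPM of 6 members in every library, by exposure; grey points are pools labelled con, red points pools labelled R2b, marker shape gives the litter, thin lines join pools of a litter and thick bars are group means. Chst2 and Sdc2 separate by genotype in both the short and the long exposure, Gpc3 is lower in R2b in the short exposure, and in the late exposure litter 1 runs against the other litters.

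Chondroitin chain assembly gave no call at either exposure, among 6 members tested in the short exposure and 7 in the long exposure. Log2 fold changes ran from -0.24 to 1.03 and from -0.12 to 0.26, and the largest is that of Csgalnact1 (SE 0.41, FDR 0.0956), a gene of 0.632 to 2.27 CPM in the short exposure. Chsy1 was at 105, 98.0 and 105 CPM in con and 79.8, 89.9 and 91.1 CPM in R2b in the short exposure, lower in every litter and without overlap, at -0.24 (SE 0.10, edgeR FDR 0.0988). In the long exposure it was at 99.4 to 109 CPM in con and 86.4 to 104 in R2b, lower in 4 of 4 litters, and passed with the litter block (log2 -0.13, FDR 0.019). Chpf and Chpf2, partners of the synthases, and Dse, a dermatan epimerase, were not called. Dsel, which is not a member, is given with the further enzymes below. Of the exon length of Chpf2, 44.1% overlaps Smarcd3 on the opposite strand.

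Of the 7 chondroitin sulfotransferases 1 was called, Chst15 in the short exposure, beside 20.0% of all genes. With the block 4 were called in the long exposure, beside 40.6% of all genes. The enzyme encoded by Chst15 adds a second sulfate to 4-O-sulfated residues to give the E unit of chondroitin. Chst15 was at 23.4, 19.1 and 23.3 CPM in con and 27.7, 32.3 and 31.3 CPM in R2b, without overlap (log2 0.47, SE 0.13, edgeR FDR 0.0277). The call was lost without the R2b pool of litter 1 or 3 or the con pool of litter 1 or 2 (FDR up to 0.116), with the block (FDR 0.0791) and with all libraries in one fit (FDR 0.151). A value of similar size in the long exposure, 0.40 (SE 0.17), was not called unblocked (FDR 0.142) and passed with the block (FDR 0.00159). Of its exon length 17.9% overlaps Gm10584 on the opposite strand. Chst11, a 4-O-sulfotransferase, was at 51.9, 53.1 and 51.6 CPM in con and 61.4, 60.6 and 60.5 in R2b in the short exposure (log2 0.22, FDR 0.117). Chst14, the dermatan 4-O-sulfotransferase, was at 16.3 to 21.2 CPM in con and 13.6 to 21.0 in R2b in the long exposure. With the block Chst11 (log2 0.23, FDR 0.00783) and Chst3 (0.17, FDR 0.0117) were higher in the long exposure and Chst14 lower (-0.21, FDR 0.0481). Chst7, Chst12 and Ust were not called in either fit.

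Chst2 moved most of all members. It encodes a sulfotransferase that acts on N-acetylglucosamine, as in keratan sulfate, and is no step of heparan or chondroitin synthesis. Chst2 (ENSMUSG00000033350, minus strand of chromosome 9, 95399292 to 95406722) was at 30.3, 35.3 and 39.9 CPM in con and 90.3, 104 and 87.2 CPM in R2b in the short exposure. For the long exposure, the Chst2 values were 41.4, 42.7, 36.6 and 50.5 CPM in con and 129, 148, 153 and 126 CPM in R2b. The lowest R2b pool stood above the highest con pool by a wide margin in both. The rises were 2.67-fold (log2 1.42, SE 0.13, edgeR FDR 0.000331) and 3.25-fold (log2 1.70, SE 0.10, edgeR FDR 0.000128), and the call held under every alternative run. Chst1 and Chst10, which sulfate keratan sulfate and the HNK-1 epitope, were not called (log2 -0.25 and 0.15 in the short exposure, -0.47 and 0.14 in the long exposure).

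In the late exposure edgeR called 0 of 51 members, beside 0% of 15203 genes. At an unadjusted p under 0.05 there were 0 members and 175 genes, and DESeq2 called 0 of both. The median log2 fold change of members was 0.04, and the range was -0.25 to 0.40. Under their labels, the con pools had 62.1, 38.6, 52.4 and 45.0 CPM of Chst2 and the R2b pools 41.0, 92.9, 63.7 and 65.0. Sdc2 was at 179, 82.2, 89.7 and 86.1 CPM and at 107, 156, 131 and 146. In both genes litter 1 ran against the others, as Ighg1 did.

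The 7 members higher at both earlier exposures were all lower in the library labelled R2b of litter 1, with a median log2 ratio within the litter of -0.38. In litters 2, 3 and 4 respectively 7, 6 and 7 of them were higher, with medians of 0.40, 0.17 and 0.26. Gpc3 and Sdc1 showed the mirror image, with log2 ratios of 0.51 and 0.29 in litter 1 and of -0.16 to -0.42 in the others. Without litter 1 and with the litter as a block 4 members were called, beside 4.04% of all genes: Sdc2 at 0.75 (SE 0.07, edgeR FDR 0.0198), Chst15 at 0.51 (SE 0.10, FDR 0.0459), Gpc4 at 0.34 (SE 0.05, FDR 0.024) and Gpc3 at -0.31 (SE 0.05, FDR 0.0334). Without the block, litter 1 left out gave 0 members, and Sdc2 was then at an FDR of 0.0659. Litters 2 and 4 alone, chosen after the Ighg1 counts were seen, gave 0 members unblocked in edgeR, beside 0.0329% of all genes, with 9 members and 1692 genes at an unadjusted p under 0.05. With the block they gave 8, beside 5.77%: Sulf2, Gpc4, Sdc2, Hspg2, Agrn, Chst15 and Chst2 higher and Gpc3 lower.

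**Figure D4:**
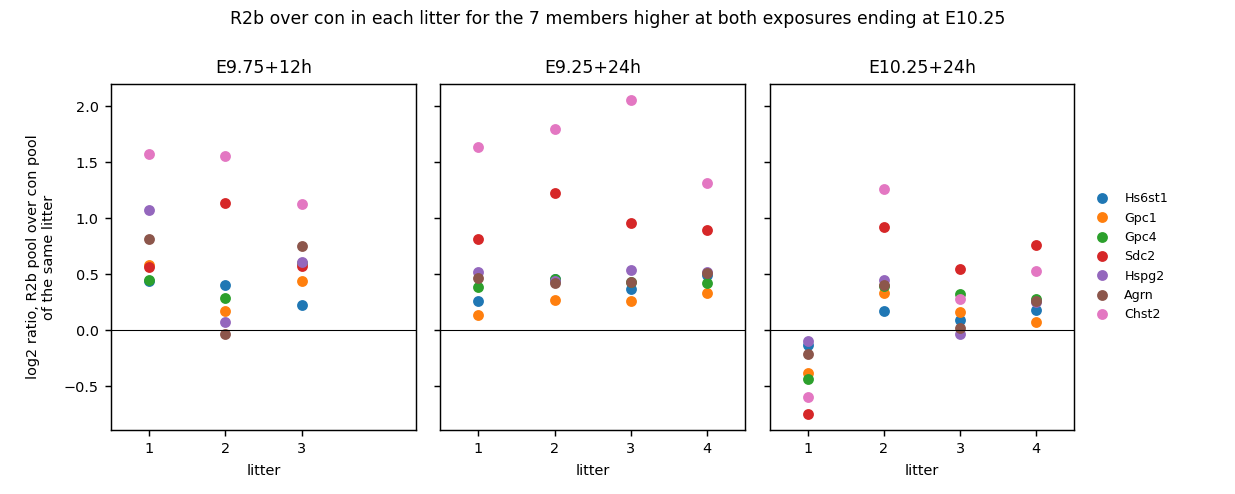
Log2 ratio of the R2b pool to the con pool of the same litter (y axis) for the 7 members called higher in both the short and the long exposure, in each litter of the 3 exposures. All 7 points of litter 1 in the late exposure are below 0, whereas litters 2 and 4 there have all 7 above 0. Litters 1 and 3 in the short exposure and every litter in the long exposure also have all 7 above 0. In those 2 exposures this largely follows from how the 7 were picked.

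The change of effect from the long exposure to the late exposure, tested in edgeR as a contrast, passed for 0 members and 0 genes, 0% of those tested. There were 5 members and 1344 genes at an unadjusted p under 0.05, and DESeq2 called 1 member and 73 genes. The member was Chst2, whose effect was smaller in the late exposure by 1.30 on the log2 scale (SE 0.25, edgeR FDR 0.075). Without litter 2 of the late exposure it was called (FDR 0.00457), as it was without the R2b or the con pool of that litter (FDR 0.0058 and 0.0425). Without litter 1 the difference was -1.003 (SE 0.20, FDR 0.150), and with litters 2 and 4 alone -0.79 (SE 0.22, FDR 0.862).

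Neighbouring parts of the pathway were described by lists drawn up for this set. Among 14 FGF readout genes, targets and feedback regulators of the pathway, 12 fell in the short exposure, with a median log2 fold change of -1.35, and 12 fell and 1 rose in the long exposure, with a median of -1.24. Dusp6, a phosphatase of the ERK kinases, fell by 1.78 (edgeR FDR 0.000347), and the FGF antagonists Spry1 and Spry2 fell by 1.39 and 1.40 in the short exposure. In the late exposure edgeR called 0 of these 14, with a median of -0.35, and 0 genes of any list named here. That fit kept litters 1 and 3 under their labels. It did not call Ighg1 of the transgene either (log2 1.69, SE 1.53, edgeR FDR 0.99988), so no lack of response is read from it. The counts of the lists below stand beside 20.0% of all genes called in the short and 15.6% in the long exposure. Of 15 genes for sulfate donor and nucleotide sugar supply 0 were called in the short exposure and 2 in the long exposure, the transporters Slc35b3 (0.30) and Slc26a1 (0.55). Of 16 turnover genes 4 were called in the short exposure and 6 in the long exposure, all higher. Genes of this list called higher include Hyal1, a hyaluronidase (0.63 and 0.69), Hexa, a lysosomal hexosaminidase (0.64 and 0.57), Galns, a sulfatase (0.63 in the short exposure), and Sgsh, the heparan N-sulfatase (0.39 in the long exposure), beside Naglu (0.63 in both) and, in the long exposure, Galns (0.55), named after their values were seen. Naglu is a lysosomal enzyme of heparan sulfate breakdown.

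Of 19 genes for chondroitin and other core proteins 5 were higher and 1 lower in the short exposure, and 2 higher and 1 lower in the long exposure. Col18a1, a heparan sulfate bearing collagen of basement membranes, rose from 626 ± 45.4 to 980.5 ± 135 CPM in the short exposure (SD, n = 3) and from 662 ± 77.6 to 1113 ± 117 CPM in the long exposure (SD, n = 4). Its log2 fold changes were 0.65 (SE 0.12, edgeR FDR 0.00412) and 0.75 (SE 0.10, edgeR FDR 0.00264). Spock2 (0.68) and Col9a2 (0.72 and 0.52) were also higher, as were Ncan (0.61) and Dcn (1.03) in the short exposure, named after their values were seen. Vcan, the large chondroitin sulfate proteoglycan versican, fell in the short exposure (log2 -0.43, edgeR FDR 0.00704) and fell from 892 ± 76.9 to 649 ± 125 CPM in the long exposure (SD, n = 4; log2 -0.46, SE 0.13, edgeR FDR 0.0438). Among 9 further glycosaminoglycan enzymes tested at each of these exposures, Chst5 rose at both (0.86 and 1.07) and Dsel in the long exposure (0.57). Of 12 FGF ligands and receptors 4 and 5 were higher, among them Fgfr2, which carries the transgene's reads. Fgf8 rose at both (1.99 and 1.65), Fgfrl1 in the short exposure (0.46) and Fgf20 in the long exposure (1.02). The others, named after their values were seen, were Fgfr4 in the short exposure (0.78) and Fgf3 (0.94) and Fgfr3 (0.65) in the long exposure.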

How the data were processed

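Per the labels, otocyst epithelia were pooled by genotype within each litter, and stranded libraries were made from oligo(dT)-selected RNA. The deposited table holds raw counts per Ensembl gene. The submitters' processing notes name Novoalign 2.08.03 and mm10. The counting tool, its strand setting, the annotation release and any gene filter are not given in the sources used here. The lowest gene total over the table was 108 counts. Symbols, positions and exon lengths are from GENCODE M21 (GRCm38), which named 15522 of the 15736 genes. Of 24 samples 22 had a column, the other 2 being from the short exposure, and 2 columns matched no sample and were not used.

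Each exposure was fitted alone in edgeR 4.0.16 (R 4.3.3): filterByExpr, TMM, glmQLFit and glmQLFTest on 2 group means, two-sided, prior count 0.125, Benjamini-Hochberg over all genes tested, FDR under 0.05. SEs come from the F statistic. Differences of effects were contrasts in all 22 libraries. The script was tested on simulated data. CPM values are TMM-scaled, and CPM per kb divides them by union exon length. Library totals were 18676615 to 28241583 counts, and the reported spread is between litters.

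Litter numbers pair con and R2b pools, since the labels state that each female gave both. Same-litter deviations correlated across genes at -0.26 to -0.12 in the short exposure, 0.42 to 0.77 in the long exposure and -0.11 to 0.39 in the late exposure, and each same-litter value was over 0.1 in the long exposure alone. The litter block was an alternative, with median-of-ratios size factors, no count filter, a mean CPM of at least 1, DESeq2 1.42.0, all libraries in one fit, a fold change of at least 1.5, and each library or litter left out.

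The members and lists were chosen with earlier results of these data known. Every called member is named. Library values are given for up to 4 called members a step, smallest FDR first, and for the member highest per length. From the other lists the rule names up to 3 called genes per exposure, and further genes are said to be named after their values were seen. Some results of the turnover and marker lists are not reported here.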

Additional observations from a re-analysis of the deposited data

Results flagged for a closer look

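In the members called in any exposure, 60 groups of 4 libraries were searched for a library far from the other 3, and 3 were found. Chance alone marks about 1 group in 20. All 3 were the con pool of litter 1 in the late exposure, the library labelled con with 15754 Ighg1 counts. Sdc2 was at 179.3 CPM there and at 82.2 to 89.7 CPM in the other con pools. Hs6st1 was at 185.1 CPM against 153 to 155 CPM, and Ext2 at 154.7 CPM against 129 to 131 CPM. The part of the transgene reads in these values was not tested.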

How the results depend on the processing

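In the short exposure the count of 12 members became 3 with a fold change of at least 1.5, 5 with the replicate block (litter), and 2 to 21 with a library or litter left out. Blocked fits lacking litter 1, 2 or 3 gave 2, 11 and 3. In the long exposure the count of 10 became 2 with that fold change, 22 with the block, and 3 to 10 with a library or litter left out. Blocked fits lacking litter 1, 2, 3 or 4 gave 19, 17, 17 and 24. In the late exposure the count of 0 became 4 with the block and litter 1 left out, and 8 with the block and litters 2 and 4 alone, an alternative chosen after seeing the data. The change of effect from the short to the long exposure gave 0 to 5 members with a library or litter left out. That from the long to the late exposure gave 1 with DESeq2 and 0 to 1 with a library or litter left out. DESeq2 called 13 and 11 members at the first 2 exposures. The blocked fits of the differences changed no call. Of the 22 member calls, no sign changed under any alternative run. DESeq2, other size factors and both count filters kept all 22, the block kept 15, all libraries in one fit 19 (Ext1 in the long and Hs3st1 and Chst15 in the short exposure were lost), and without litter 1 there were 5. Chst2 and Sdc2 at both exposures and Hspg2 in the long exposure were called under every alternative that does not add a fold limit. The cause of these shifts was not tested. Csgalnact1 and Ndst3, members near 1 CPM, had SEs of 0.36 to 0.53 in the short and long exposures, so changes of the size of most member calls were not detectable there.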
